A study of Mus musculus with 6 samples.

Results

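The vehicle arm of the study consisted of 3 RNA-seq libraries of newborn intestine. The mice were of the inbred strain C57BL/6, and the tissue had been treated for 5 days with DMSO, the solvent control. They are 3 of the 6 libraries of the series, and the libraries treated with the adenosine receptor agonist NECA were not used here. Neither genetic change nor agent other than DMSO is named for these samples. The labels do not give the segment of bowel, the way DMSO was given, or whether each library came from a separate animal. The genes described were those with at least 10 counts in each of the 3 libraries, which left 14933 of 54532 genes. They held 99.8% of the counts of every library.

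The suckling intestine lives on milk. Its villus enterocytes take up fat, rebuild triglyceride in the endoplasmic reticulum and export it with apolipoproteins as chylomicrons. They also carry maternal IgG from milk across the epithelium and digest other milk proteins in large lysosomes. At weaning the mouse epithelium switches to an adult programme with sucrase, trehalase, Paneth cell defensins and inducible Reg3 lectins.

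The libraries held 15531996 to 17922697 counts, and 21796 to 21841 genes had at least 1 count in each. The library of replicate 2 stood apart from the other 2. Xist, the RNA of the inactive X chromosome, had 14 counts in it, against 4318 in replicate 1 and 5840 in replicate 3. Genes of the Y chromosome summed to 2495 counts in it, against 23 and 13. The Y-linked genes Eif2s3y and Ddx3y had 1015 and 743 counts in replicate 2 and 0 in both others, where a count of 0 allows up to 3 counts. Genes of the mitochondrial chromosome took 8.39% of its counts, against 4.49% in replicate 1 and 3.61% in replicate 3. Across genes, which are not independent replicates, log2 CPM (counts scaled to library size with TMM factors) of replicates 1 and 3 had a Pearson r of 0.984, and replicate 2 had r of 0.969 and 0.965 with them. No 2 libraries agreed within sampling noise, since the 95% counting interval of their ratio left out 1 for 40.8% to 57.6% of genes. The values below are therefore given by library, with and without replicate 2 where it decides a result.

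Bulk RNA from 1 group was described, so no test between groups applies. In bulk tissue, fewer cells of a type cannot be told apart from less RNA per cell. Levels are FPKM as deposited (read fragments divided by transcript length and sequencing depth), given as mean ± SD over the 3 libraries. Spread between libraries is the ratio of the highest to the lowest library in TMM-scaled CPM, with a 95% exact counting interval. A gene was counted as varying where the lower bound of that interval was at least 2. Over all members 637 of 14933 genes (4.27%) varied, the share to set beside each list count below. With 1 library left out, genes with at least 10 counts in both others were used. Then 443 of 15088 varied without replicate 1, 141 of 15265 without replicate 2 and 320 of 15286 without replicate 3. List counts with a library left out are to be set beside these. Replicates 1, 2 and 3 were the highest library for 4216, 5979 and 4738 of all members, and the lowest for 4366, 5792 and 4775. The library apart is the highest or the lowest one, whichever has the larger log2 gap to the middle library. Every varying gene is thus given a library apart, also where all 3 libraries differ. The reads were amplified by PCR without molecular identifiers, so these intervals cover counting error only. They take no account of picking the highest and lowest of the 3 libraries by their values.

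The members of the vehicle transcriptome were unequal in level. Only 28 genes had a mean of at least 1000 FPKM, and they held 31.4% of all FPKM. Another 526 genes lay between 100 and 1000 FPKM, 4223 between 10 and 100, 7664 between 1 and 10, and 2492 below 1. The median gene had 4.79 FPKM. The 10 highest genes took 19.9%, 28.4% and 19.8% of FPKM in replicates 1, 2 and 3, and the 100 highest took 41.8% ± 5.15. Without mitochondrial genes the share of the 100 highest was 35.8%. Protein-coding genes made up 13750 of the members and 90.7% of FPKM. At the edge of the count rule, 189 genes had a lowest count of exactly 10, with a median of 0.315 FPKM, and 181 genes left out had a lowest count of 9, with a median of 0.355.

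Fat absorption genes led the named genes by level. The fat absorption list summed to 32821, 40758 and 36276 FPKM in replicates 1, 2 and 3. The FPKM sums of the whole libraries were 372430, 435920 and 378640. Apoa1, the main apolipoprotein of high-density lipoprotein, was at 10105, 13621 and 13314 FPKM in replicates 1, 2 and 3, a mean of 12347 ± 1947. Apoa4, an apolipoprotein of intestinal chylomicrons, was at 9157, 11211 and 9844 FPKM, a mean of 10071 ± 1045. The ratios of 1.37 and 1.24 lay near the 1.34 of the median member. Apoc3, an inhibitor of lipoprotein lipase, was at 1813, 3588 and 2231 FPKM, highest in replicate 2 by 2.01-fold over replicate 1 (lower bound 1.98). The 3 genes lie side by side on chromosome 9 of GRCm38, Apoa1 at 46228580 to 46230466, Apoc3 at 46232933 to 46235636 and Apoa4 at 46240696 to 46243459.

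The fatty acid binding proteins followed. Fabp2, the intestinal form, was at 3967, 5043 and 3408 FPKM, and Fabp1, the liver form, at 4271, 4287 and 3757 FPKM. Both were thus within 1.51-fold across the libraries. The enzymes of triglyceride assembly and export were also abundant. Dgat2 and Mogat2, which make triglyceride, were at 700.2 ± 96.5 and 262.5 ± 47.2 FPKM. Mttp, the transfer protein that loads lipid on apolipoprotein B, was at 636.9 ± 101 and Apob at 273.4 ± 58.2 FPKM. Of 20 fat absorption genes listed, 19 met the count rule. None of these 19 varied, beside 637 of 14933 genes (4.27%) over all members, and their median ratio was 1.27 against 1.34 over all members.

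**Figure D1:**
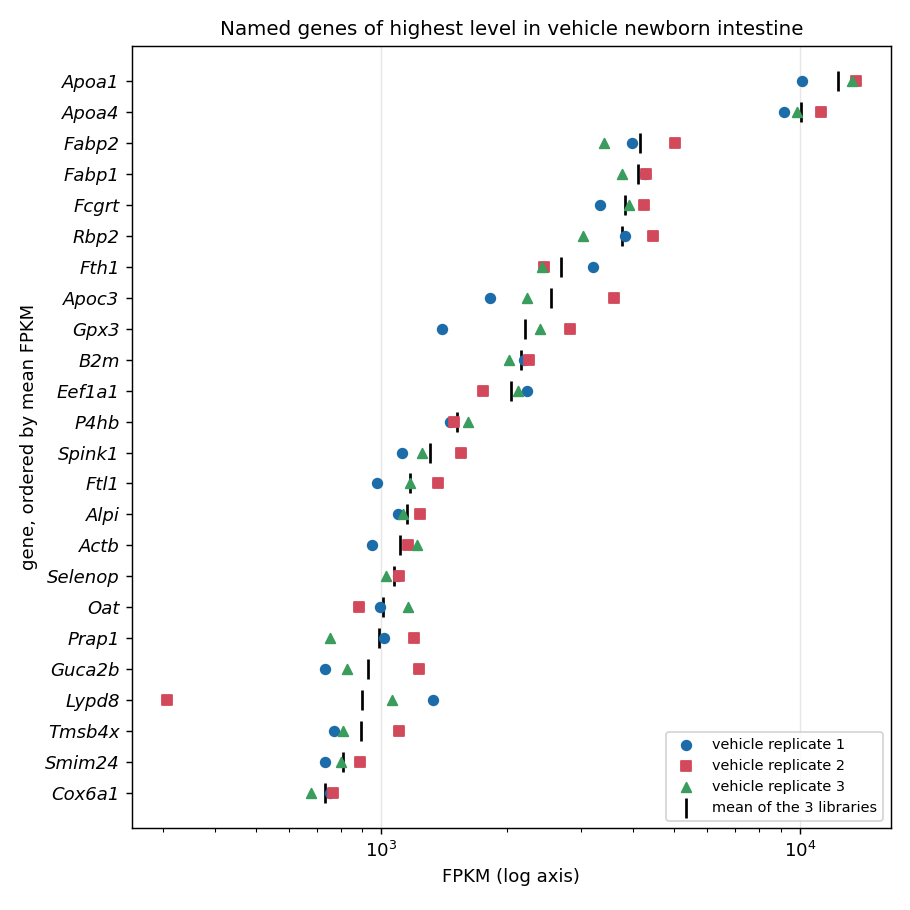
FPKM on a log axis of 24 of the 25 genes of highest mean level, with mitochondrial, ribosomal protein and predicted genes left out. Points are the 3 vehicle libraries and the black ticks their means. Apoa1 and Apoa4 lead at 12347 and 10071 FPKM, and Lypd8 is the gene with 1 library far below the other 2 (replicate 2, 307 FPKM).

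The next genes belonged to uptake, storage and digestion. Fcgrt, the receptor that carries IgG across the epithelium, was at 3336, 4238 and 3904 FPKM. Rbp2, which binds retinol in enterocytes, was at 3816, 4449 and 3037 FPKM. The ferritin chains Fth1 and Ftl1, which store iron, were at 2689 ± 448 and 1171 ± 195 FPKM. Gpx3, the secreted glutathione peroxidase, was at 1396, 2829 and 2396 FPKM and varied 2.05-fold, low in replicate 1 alone. Scaled by total counts its log2 ratio was 0.98, under a 2-fold difference, which ends that call. B2m, the light chain of MHC class I and of the IgG receptor, was at 2153 ± 123 FPKM. Eef1a1, a translation elongation factor, was at 2036 ± 251 FPKM and P4hb, an endoplasmic reticulum chaperone, at 1516 ± 79.4. Spink1, a trypsin inhibitor, was at 1306 ± 219 FPKM. Alpi, the intestinal alkaline phosphatase, was at 1152 ± 74.7 FPKM.

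Metabolic and secreted proteins were also among the 25. Selenop, a selenium carrier, was at 1074 ± 42.5 FPKM, and Oat, which makes citrulline precursors, at 1010 ± 139. Guca2b, the hormone uroguanylin, was at 734, 1230 and 829 FPKM. Lypd8, a protein that coats bacteria in the lumen, was at 1329, 307 and 1062 FPKM and varied 4.27-fold, low in replicate 2 alone. Actb, Tmsb4x, Prap1, Smim24 and Cox6a1 lay between 733 and 1108 FPKM and did not vary. Hence 23 of the 25 did not vary.

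The genes above Apoa1 were not named by that rule. The highest was Gm23935, annotated as a microRNA of very short length, at 13728, 30429 and 16404 FPKM from 14154, 26459 and 15088 counts. Its FPKM rests on that short length, so it cannot be compared with the levels of full mRNAs. The second was mt-Co1, a cytochrome oxidase subunit encoded in the mitochondrion, at 13020, 24128 and 10480 FPKM. Of 37 genes of the mitochondrial chromosome, 26 met the count rule. Of these, 25 were highest in replicate 2, beside 5979 of 14933 members. Of the 26, 20 varied, and 1 varied without replicate 2 and 13 without replicate 3.

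Genes of the suckling stage spanned a wide range of levels. Beside Fcgrt, Lct, the brush border lactase, was at 375, 304 and 403 FPKM, and Neu1, a lysosomal sialidase, at 164, 202 and 203 FPKM. Ass1, of the arginine pathway, was at 157.0 ± 7.504 FPKM. Prdm1, the repressor known as Blimp-1 that holds back the adult programme, was at 10.1, 8.58 and 14.8 FPKM. Cubn and Dab2, of the endocytic receptor complex, were at 12.4 ± 1.31 and 27.2 ± 3.87 FPKM. None of the 11 listed genes varied, a count near the 4.27% of all members, and their median ratio of 1.29 was close to the 1.34 of all members.

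Genes of enterocyte uptake and lysosomal digestion had a median of 178 FPKM, and 3 of 22 varied, each with replicate 3 highest. Scaled by total counts, 2 of them varied. Ctsz and Lamp1 were at 622.8 ± 98.8 and 460.1 ± 49.1 FPKM. Lgmn, the protease legumain, was at 251, 373 and 756 FPKM, and Ctsl, cathepsin L, at 152, 217 and 436 FPKM. Both were thus about 3 times higher in replicate 3 than in replicate 1, with ratios of 3.01 and 2.86. Lrp2, the receptor megalin, was low, with 18, 36 and 56 counts. Without replicate 1 or without replicate 3 none of the 22 varied.

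Genes of the weaning switch were uneven. Sis, sucrase-isomaltase, was at 1.84, 0.799 and 0.955 FPKM, against 361 for the mean of Lct. Treh, trehalase, was at 28.05, 17.99 and 9.05 FPKM, 3.11-fold apart and lowest in replicate 3. Arg2, an arginase, had 211, 51 and 13 counts. Reg3b, a secreted lectin that binds bacteria, was at 4.84, 1.49 and 277.9 FPKM, and its relative Reg3g at 2.82, 1.18 and 33.1 FPKM. Replicate 3 therefore exceeded replicate 2 by 183-fold (interval 125.0 to 281) for Reg3b and by 27.6-fold (20.01 to 39.3) for Reg3g. Of 11 listed weaning genes, 9 met the count rule, and 6 of these 9 varied. The same count was 5, 6 and 4 without replicates 1, 2 and 3. The alpha-defensins are a family of near-identical copies between which reads may be split, so single values such as that of Defa24 are uncertain.

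The letters before the start sites of 5 genes are shown because they range from genes that did not vary (Fabp2, Lct) to levels carried by 1 library (Reg3b, Reg3g and Fabp6, the ileal bile acid binding protein). Each is the 80 bases before the RefSeq start site on GRCm38.p6, on the gene's own strand, with TATAAA in capitals. Fabp2 lies on the plus strand (chr3:122894992-122895071), Lct on the minus strand (chr1:128328319-128328398), Fabp6 on the minus strand (chr11:43601563-43601642), Reg3b on the plus strand (chr6:78370805-78370884) and Reg3g on the minus strand (chr6:78468875-78468954).
Fabp2: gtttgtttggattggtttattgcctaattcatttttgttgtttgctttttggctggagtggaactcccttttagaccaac
Lct: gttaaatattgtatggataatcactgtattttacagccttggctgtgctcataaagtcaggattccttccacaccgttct
Fabp6: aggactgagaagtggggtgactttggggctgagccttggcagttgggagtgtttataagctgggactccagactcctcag
Reg3b: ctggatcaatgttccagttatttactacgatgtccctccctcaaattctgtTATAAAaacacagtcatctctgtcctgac
Reg3g: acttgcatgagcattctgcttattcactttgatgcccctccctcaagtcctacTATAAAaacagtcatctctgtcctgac
Reg3b and Reg3g both hold TATAAA, beginning 29 and 27 bases before the start, and 22 of the 30 bases before it are identical without gaps. Fabp2, Lct and Fabp6 do not hold these letters.

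Over all genes, TATAAA was searched on the gene's strand from 45 to 16 bases before the start. RefSeq entries were found for 11135 of 14929 member symbols. The letters stood in 2.14% of all 32851 promoters of the table and in 1.38% of the members' 14241. Among members of at least 100 FPKM the share was 4% of 475. It was 1.65% of 4116 between 10 and 100 FPKM, 1.05% of 7343 between 1 and 10, and 1.43% of 2308 below 1. Promoters of varying members held the letters in 28 of 557 cases (5.03%), against 168 of 13684 (1.23%) for the other members. The letters CAAAGTCCA, a form of the motif of the enterocyte factor Hnf4a, were searched on either strand in the 250 bases before the start. They stood in 0.384% of all promoters and in 0.428% of those of members. Members of at least 100 FPKM held them in 3 promoters (0.632%) and those between 10 and 100 FPKM in 28 (0.680%). The count was 19 (0.259%) between 1 and 10 FPKM and 11 (0.477%) below 1. These shares describe letters and no binding was measured.

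Markers of intestinal epithelium were high. Epcam, a cell adhesion protein of epithelia, was at 660, 667 and 810 FPKM, Krt8 at 569, 442 and 710, and Vil1, villin of the microvillus, at 275, 181 and 331 FPKM. The intestinal transcription factors Hnf4a, Cdx2 and Cdx1 were at 125.8, 94.96 and 94.8 FPKM on average. Of 18 epithelial genes, 1 varied, a count near the 4.27% of all members. Of the 18, 14 were lowest in replicate 2, beside 5792 of 14933 members. The brush border hydrolases were less even, since 6 of 15 varied. Naaladl1, a peptidase, was at 13.0, 15.4 and 141.7 FPKM and Enpep, aminopeptidase A, at 17.7, 14.8 and 86.9, both high in replicate 3 alone. Mme, neprilysin, was at 62.1, 40.7 and 26.1 FPKM. Ace and Anpep, at 365 ± 101 and 288 ± 83.9 FPKM, did not vary. Without replicate 3 none of the 15 varied, a count near the 320 of 15286 over all genes.

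Genes of sugar synthesis were abundant. Pck1, the enzyme that commits to gluconeogenesis, was at 738, 729 and 729 FPKM, with a ratio of 1.02. Fbp1 and G6pc, the later steps, were at 384 ± 15.7 and 104.5 ± 24.4 FPKM. Acaa2, a thiolase of fatty acid oxidation, was at 804, 632 and 637 FPKM, highest in replicate 1. None of 11 sugar genes varied, a count near the 4.27% of all members. Of 20 genes of fatty acid oxidation, 3 did (2 or 1 with 1 library left out). The arginine pathway was led by Oat and by Cps1, carbamoyl phosphate synthetase, at 291, 142 and 339 FPKM, which varied 2.35-fold and was low in replicate 2.

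Goblet cell genes set replicate 2 apart. Tff3, a trefoil peptide of mucus, was at 650, 229 and 897 FPKM. Spink4 was at 174.2, 26.2 and 206.2 FPKM, and Clca1, a secreted protein of mucus, at 103, 23.5 and 119. Muc2, the gel-forming mucin, was at 25.1, 6.42 and 18.7 FPKM. Replicate 2 was the lowest library for each of these genes. Of the 15 genes listed 14 met the count rule. Of these 14, 12 were lowest in replicate 2, beside 5792 of 14933 members, and 12 varied. Beside 141 of 15265 genes over all, 2 of the 14 varied without replicate 2. Of these, Zg16, a lectin of the granules, was at 158, 37.2 and 30.7 FPKM, and Klk1, a kallikrein, at 25.6, 1.70 and 6.27 FPKM, both high in replicate 1. Atoh1 and Spdef, the transcription factors of the secretory lineage, were low throughout (1.64 and 3.25 FPKM) with 16 and 49 counts in replicate 2.

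Genes of other secretory cells followed. Of 15 Paneth cell genes, 4 met the count rule. Defa24, an alpha-defensin, was at 86.2, 16.7 and 307 FPKM, while Defa5 had no count. Lyz1, the Paneth lysozyme, was at 4.99, 3.997 and 10.4 FPKM. Guca2a, the hormone guanylin, had 1327, 178 and 3082 counts, 16.1-fold apart. Enteroendocrine cells were represented by the hormones Gip (55.1 ± 9.17 FPKM), Sct (43.8 ± 4.94) and Cck (26.9 ± 6.34), and 4 of 19 such genes varied (2 with each library left out). Gcg, the glucagon and GLP-1 precursor, had 167, 24 and 160 counts. Of 12 tuft cell genes, 6 met the count rule and none of them varied, a count near the 4.27% of all members. Their median ratio was 1.82, above the 1.34 of all members. At their median of 0.687 FPKM few counts widen the interval, so the absence of a call does not show evenness. Stem cells were represented by Olfm4, at 205.4 ± 10.5 FPKM, and 1 of 17 stem cell genes, Smoc2, varied (10.9, 21.5 and 9.73 FPKM).

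Cell division genes were expressed in all libraries. Pcna, the DNA clamp, was at 53.5, 52.1 and 74.3 FPKM, Top2a at 18.5, 16.3 and 24.9 FPKM, and Mcm6, of the replicative helicase, at 25.01, 22.1 and 33.0 FPKM. None of the 24 varied, beside 4.27% of all members. Their median ratio was 1.42, above the 1.34 of all members. Of the 24, 18 were highest in replicate 3, beside 4738 of 14933 members. Of 84 ribosomal protein genes, 2 varied, against 1 without replicate 1 and 0 without replicate 2. Rps27a, which encodes ubiquitin fused to a ribosomal protein, was the largest of these, with 2306, 6192 and 2627 counts. Ribosomal proteins have many processed copies, so single members are uncertain.

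Muscle, nerve and serosa genes were highest in replicate 2, where goblet cell genes were lowest. Acta2 was at 566, 1060 and 458 FPKM, Actg2, the enteric smooth muscle actin, at 348, 699 and 262, and Des, desmin, at 78.6, 166.0 and 62.3. All 15 smooth muscle genes were highest in replicate 2 and lowest in replicate 3, beside 5979 and 4775 of 14933 members. Of these 15, 11 varied with all 3 libraries, 11 without replicate 1, 0 without replicate 2 and 2 without replicate 3. Over all genes the counts were 637 of 14933, 443 of 15088, 141 of 15265 and 320 of 15286 in that order. A 0 without replicate 2 is thus near the share of all genes, here and for the lists below. Msln, mesothelin of the serosa, was at 14.8, 47.9 and 8.53 FPKM. All 7 mesothelial genes were highest in replicate 2, and 6 varied, against 0 without replicate 2. Among enteric neuron genes, Prph, peripherin, was at 16.7, 31.8 and 13.0 FPKM and Hand2, a transcription factor of enteric neurons, at 8.11, 17.1 and 5.59. All 14 were highest in replicate 2, and 6 varied, against 0 without it and 1 without replicate 3. The summed smooth muscle level was 2062, 3895 and 1633 FPKM, and that of the goblet cell list 1354, 410 and 1513 FPKM. The part of tissue composition in these differences was not tested.

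Genes of connective tissue, blood vessels and lymphatic vessels differed in spread. Sparc, a matrix protein, was at 225, 203 and 183 FPKM, Col3a1 at 205.2, 125.7 and 194.7, and Col1a1 at 135, 102 and 140. None of 23 fibroblast genes and none of 12 blood endothelial genes varied, counts near the 4.27% of all members. Of them, 18 and 10 were lowest in replicate 2, beside 5792 of 14933 members. Plvap, of fenestrated capillaries, was at 99.8 ± 12.4 FPKM. Of 7 lymphatic endothelial genes, 5 varied, and 1 did so without replicate 2 and 3 without replicate 3, and the median ratio of the 7 was 2.80. Lyve1, a hyaluronan receptor, was at 10.2, 5.30 and 12.8 FPKM.

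**Figure D2:**
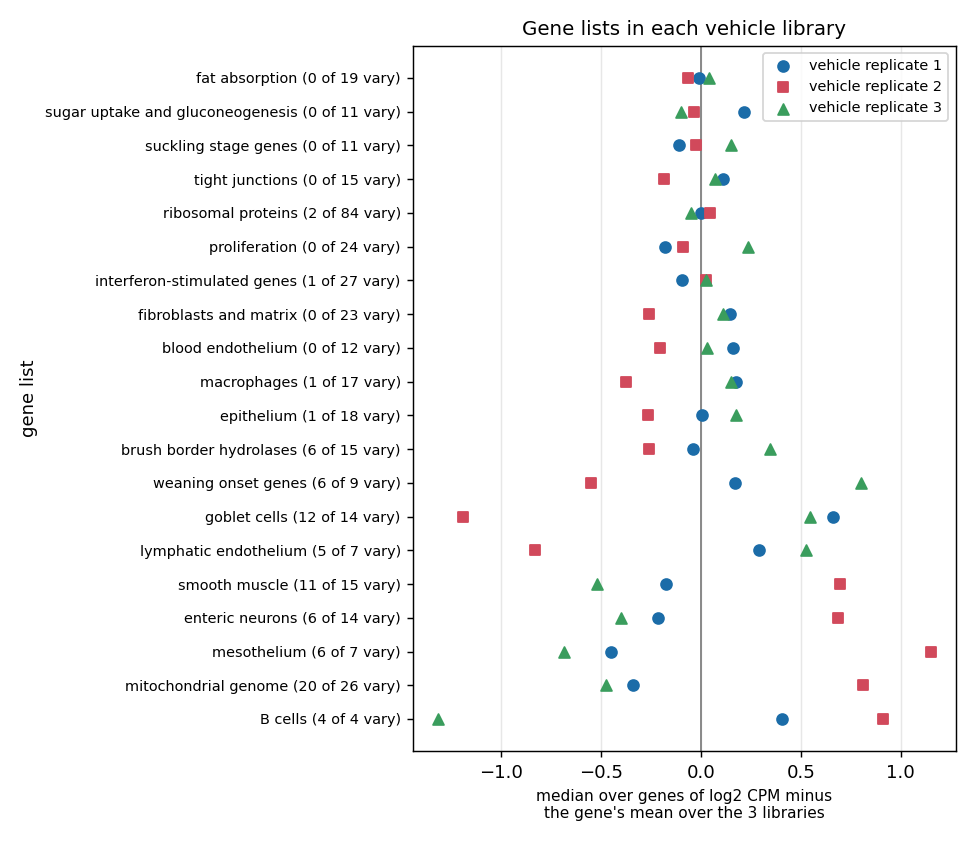
Median over each list's member genes of log2 CPM minus the gene's own mean over the 3 vehicle libraries. Points are libraries, and each label gives how many members of the list varied. Replicate 2 lies left for goblet cells (12 of 14 varied) and right for smooth muscle (11 of 15), neurons, mesothelium and mitochondrial genes, while fat absorption lies near 0 in all 3.

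Immune genes ranged from low levels to levels above the 95th percentile of all members, which was 73.8 FPKM. Cd74, the MHC class II chaperone, was at 199, 146 and 230 FPKM and H2-Eb1 at 91.2, 74.4 and 96.6. Csf1r, the macrophage growth factor receptor, was at 59.2, 67.7 and 77.6 FPKM, and C1qa, a complement chain of macrophages, at 72.3, 55.0 and 68.9. Of 17 macrophage genes, 1 varied, and their median ratio was 1.60 against 1.34 over all members. Of the 17, 13 were lowest in replicate 2, beside 5792 of 14933 members. Csf1r, lowest in replicate 1, was not among these 13. Interferon-stimulated genes were expressed in all libraries, with Isg15 at 127, 209 and 152 FPKM, Ifit2 at 129, 159 and 145 and Ifit1 at 124, 144 and 138. Of 27 such genes, 1 varied. This count and that of the macrophage genes are near the 4.27% of all members.

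Of 16 B cell genes, 4 met the count rule, and all 4 were highest in replicate 2 and lowest in replicate 3. Cd79a, of the B cell receptor, was at 4.63, 6.84 and 0.425 FPKM, 16.3-fold apart. Igkc, the kappa chain, had 91, 100 and 9 counts. All 4 varied, against 4, 2 and 1 without replicates 1, 2 and 3. Trac, the alpha chain constant region of the T cell receptor, was at 67.9, 96.6 and 48.1 FPKM. Of 12 T and innate lymphoid genes, 1 varied, beside 4.27% of all members, while their median ratio was 1.84 against 1.34 over all members. Of 12 neutrophil genes, 3 met the count rule, at 0.742 to 2.18 FPKM, and Mpo had no count.

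Of the receptors for adenosine, Adora2b was the highest, at 27.5, 33.8 and 40.1 FPKM, whereas Adora2a and Adora1 were at 1.48 and 0.935 FPKM on average. Ada, adenosine deaminase, was at 27.6 ± 5.65 FPKM and Nt5e, the ectoenzyme CD73 that makes adenosine, at 5.61 FPKM. Of 11 genes of adenosine receptors and metabolism that met the count rule, none varied, a count near the 4.27% of all members.

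Markers of other organs were checked. Of 10 stomach genes 1 met the count rule, and Gif, Atp4b, Tff1, Muc5ac and Gkn2 had no count, with summed levels of 1.66 to 2.95 FPKM. Of 15 pancreatic genes 3 did, with summed levels of 30.5 to 88.0 FPKM. Ctrb1 led them at 39.4, 22.3 and 65.1 FPKM, while Amy2a5 had no count. Of 15 liver genes 4 did, with summed levels of 177 to 282 FPKM, nearly all from Ttr (79.8, 127.9 and 142.0) and Serpina1a, and albumin had 5, 13 and 31 counts. Of 10 skeletal muscle genes 4 did, with summed levels of 8.23 to 12.5 FPKM.

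Over all genes the median ratio between the highest and lowest library was 1.34, and the 95th percentile was 2.68. The common biological coefficient of variation, edgeR's estimate of relative spread beyond counting, was 0.221. Of the 637 varying genes, replicate 2 was the library apart in 426 (66.9%), 229 high and 197 low. Replicate 3 was apart in 140, 54 high and 86 low, and replicate 1 in 71, 58 high and 13 low. Without replicate 2, 141 genes varied between replicates 1 and 3 and the coefficient of variation was 0.159. Without replicate 3, 320 genes varied. Of the 28 genes of at least 1000 FPKM, 9 varied. Among them Gpx3 alone lay outside the mitochondrial, ribosomal protein and predicted genes, and its call ended under scaling by total counts. The other named genes of at least 1000 FPKM, from Apoa1 to Oat, did not vary. For the lists in which 1 member varied, the count was 0 or 1 with each library left out.

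**Figure D3:**
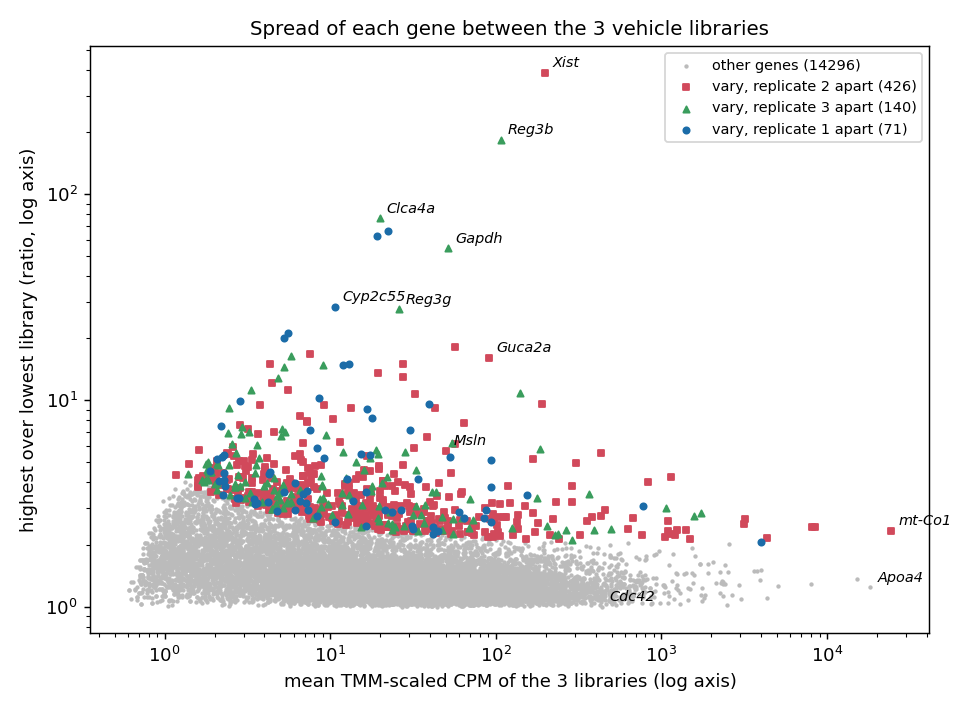
Ratio of the highest to the lowest vehicle library against mean TMM-scaled CPM, both on log axes, for 14933 genes. Coloured points are the 637 varying genes, by the library that stood apart, and grey points the others. Xist (388-fold) and Reg3b (183-fold) have the largest ratios of the labelled genes, while Apoa4 has a ratio of 1.24 and Cdc42 one of 1.0007.

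The genes with replicate 2 apart and high included Msln and Lrrn4 of the serosa. Others were Casq2, a calcium-binding protein of muscle (200, 391 and 101 counts), and Igfbp6, a growth factor binding protein (328, 804 and 222). The nuclear RNA Neat1 had 2938, 7864 and 3052 counts, and the nuclear RNA Malat1 had 742, 2346 and 1402, with replicate 1 the library apart. Rnf208 and Ddit3, a stress-induced transcription factor, were low in replicate 1 alone, as was Gpx3. Nlrp9b and Ndufa12 were also high in replicate 2. Genes with replicate 2 apart and low, beside Xist, Defa24 and Guca2a, included Mgat4c (506, 52 and 840 counts) and Tspan1 (939, 60 and 436). Others were the chemokines Ccl11 (461, 34 and 498) and Ccl6 (1065, 105 and 1034), and the collagen chain Col6a5 (780, 71 and 815). Replicates 1 and 3 also differed for Defa24 (35.7 and 127 CPM) and Guca2a (72.6 and 189 CPM).

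Replicate 1 held the most counts of several transcripts typical of the large bowel, with 0 or few in the others for most of those named. Car1, a colonic carbonic anhydrase, had 137, 0 and 0 counts, while Car4, another carbonic anhydrase, had 36, 3 and 20. The posterior Hox genes Hoxa13 and Hoxb13 had 71 and 28 counts in replicate 1 and 0 in the others, and Hoxa10 had 242, 9 and 0. Nox1 and Atp12a, an oxidase and a proton pump of the distal bowel, had 170, 2 and 1 and 168, 2 and 1 counts. The amino acid transporter Slc6a14 had 1502, 2 and 79, and Retnlb had 33, 0 and 0. Among genes that met the count rule, replicate 1 was apart and high for Cyp2c55, an arachidonic acid hydroxylase (547, 16 and 20 counts, 28.4-fold). The same held for Steap4 (605, 51 and 36), Car2 (1691, 258 and 158), Oit1, Reg1 and Adh6a. Adh6a was graded over the libraries, at 60.1, 22.2 and 8.33 CPM. Of 12 colon genes, 4 met the count rule and 2 of these varied, against 1 with each library left out, while Hoxd10 to Hoxd13 had no count. The summed level of the colon list did not follow Car1, at 350, 402 and 234 FPKM, and 2 of the 4 members were highest in replicate 2. The colon genes Mettl7b and Slc26a3, at 192 and 19.7 FPKM on average, did not vary.

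Replicate 3 was the highest library for several ileal transcripts. Fabp6, the bile acid binding protein of the ileum, had 1, 3 and 2159 counts, and Fgf15, the hormone that ileal enterocytes release in response to bile acids, 0, 0 and 231. Clca4a had 63, 11 and 905 counts, 76.6-fold apart. Osr2, an odd-skipped transcription factor, had 108, 114 and 486, and Muc3, a membrane mucin, 395, 371 and 1271. Gsdme and Mreg were high in replicate 3 alone as well, by 5.59-fold and 5.24-fold. Slc10a2, the ileal bile acid uptake transporter, did not follow them, with 39, 0 and 16 counts. Slc51a and Slc51b, the basolateral exporter, were counted in all libraries, at 67.0 ± 18.5 and 67.7 ± 5.29 FPKM. Nr1h4, the bile acid receptor FXR, was at 45.9 ± 10.6. Of 9 ileal and bile acid genes, 6 met the count rule and 2 of these varied. Without replicate 3 the count was 0, near the 320 of 15286 over all genes.

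Transcripts of the proximal bowel were low in replicate 3. Pdx1, the transcription factor of duodenum and pancreas, had 282, 163 and 37 counts, and Onecut2 1557, 1310 and 586. Tmprss15, the duodenal enzyme enteropeptidase, had 391, 257 and 4, and Cyp4a10, a fatty acid hydroxylase, 1646, 894 and 237. The factor Gata4, which marks the proximal small bowel, did not vary, at 41.2, 34.4 and 35.2 FPKM. Of 12 proximal genes, 2 varied, against 0 without replicate 3, a count near the 320 of 15286 over all genes. Replicate 3 was also the low library for S100b (439, 427 and 80 counts), Clu (419, 452 and 88), the protease inhibitor Slpi (493, 747 and 143) and complement C3 (6541, 8687 and 2666), C8b and Cmah. Gapdh had 2318, 379 and 38 counts, a 54.5-fold spread for an enzyme that cells use throughout, while Aldoa and Pgk1 of the same pathway had ratios of 1.24 and 1.08. Gapdh has many near-identical pseudogenes, and its values are uncertain.

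**Figure D4:**
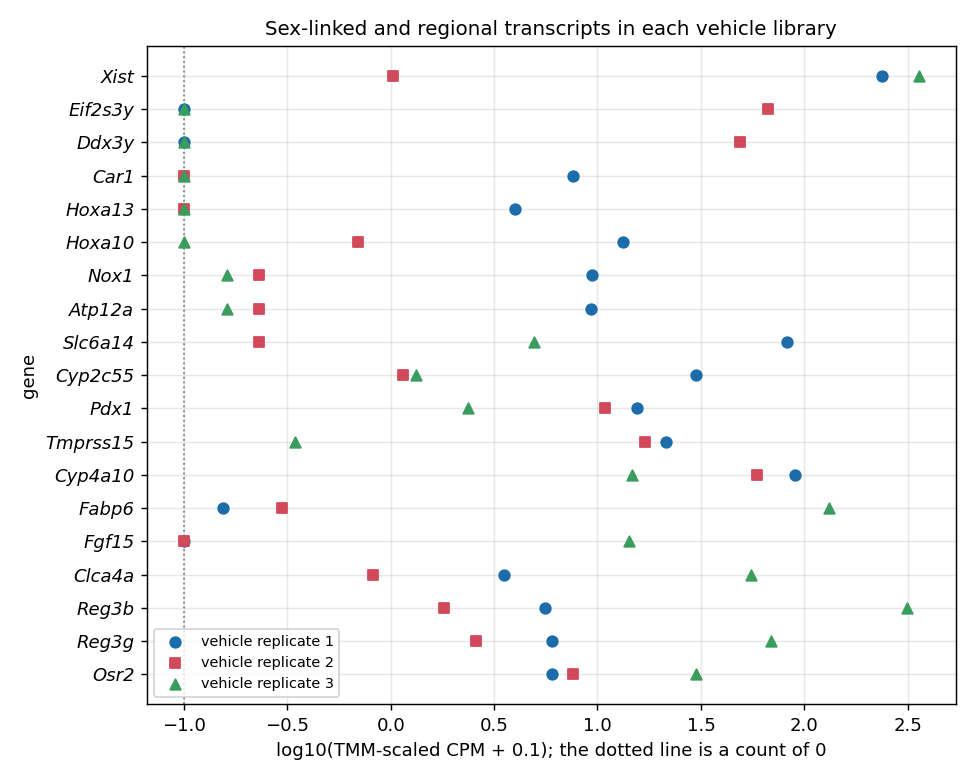
log10 of TMM-scaled CPM plus 0.1 in each vehicle library for sex-linked genes and for genes that differ along the bowel, with the dotted line at a count of 0. Car1 and Hoxa13 were counted in replicate 1 alone, Fgf15 in replicate 3 alone, and Eif2s3y and Ddx3y in replicate 2 alone.

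The most even genes had ratios near 1. Cdc42, a GTPase of cell polarity, was at 437.07, 437.35 and 437.35 CPM, a ratio of 1.0007 (interval 0.968 to 1.03). Maf, a transcription factor, was at 272.74, 273.07 and 274.73 CPM. Stom, Kat14, Kdf1, Shroom3, Cd151, Ajuba, Hdac3 and Osbpl9 completed the 10 most even of 4015 genes with at least 50 CPM. These 10 were chosen for their small ratio, which is a description and not a test of equality.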

How the data were processed

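The authors deposited raw whole-number counts for 54532 genes of every library, with FPKM beside them, per the file headers. Deposited FPKM equalled the count over a gene value times a library factor, to within a relative 3e-09. Per the submitters' processing notes, HISAT, StringTie and edgeR and the builds mm10 and GRCm38 were used. Tool versions, the strand setting and the counting of multi-mapping reads were not given in the sources used here. Coordinates are from GENCODE release M21, which held 99.9% of the identifiers.

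Total counts were 17922697, 15531996 and 16302265, and they limit the precision of low genes. Counts were scaled with TMM factors of edgeR 4.0.16 in R 4.3.3, and intervals were computed with scipy 1.17.1. The ratio of 2 libraries was given a Clopper-Pearson interval, whose coverage was checked on simulated counts of a fixed pair. Its coverage for the highest and lowest of 3 libraries, picked by their values, was not checked. No comparison between groups and no p-value was computed, and the spread between libraries may be technical in part. The members and the 58 gene lists were chosen with earlier results of these data known.

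Genes were named by a rule: the 25 of highest mean FPKM outside mitochondrial, ribosomal protein and predicted genes; up to 8 varying genes per library and direction with at least 10 CPM; the 10 most even of at least 50 CPM; and up to 3 leading members of each list described, with list genes under the count rule named by their counts. Names beyond these were chosen after their values were seen. A few genes within this rule are not reported here. Alternatives were other scalings, count rules and bounds, and leaving out each library.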

Additional observations from a re-analysis of the deposited data

How the results depend on the processing

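The number of varying genes depended on the bound. With a lower bound of at least 1.5 it was 1994, with a bound of at least 4 it was 77, and with the ratio itself of at least 2 it was 1969, against 637. Counting genes with at least 10 counts in any library gave 1040. Leaving out 1 library gave 141 (without replicate 2) to 443 (without replicate 1), and 320 without replicate 3, and 443 of 443, 124 of 141 and 313 of 320 of these also varied with all 3. DESeq2 size factors, total counts and the factors behind the deposited FPKM gave 632, 628 and 629. The number of genes of at least 100 FPKM was 1421 in TPM against 554. The FPKM share of the 100 highest genes was 35.8% without mitochondrial genes and 24.8% in counts not scaled by length, against 41.8%. The coefficient of variation was 0.210 with at least 20 counts in each library, and 0.159 to 0.256 with 1 library left out. Across 3 other scalings, 159 of 162 ratios of the 54 named varying and stable genes stayed within their counting interval (the exceptions were Gpx3 under total counts and the FPKM factors, and Cdc42 under total counts). None of the 44 varying genes changed its direction. With lower bounds of at least 2 they hardly could, because the scalings moved ratios by far less. Of the 10 stable genes, whose ratios lie near 1, 4 had the order of their libraries turned under at least 1 scaling. Of the list counts, 115 of 116 stayed within 1.5 times. The library order of a summed level changed with the scaling for the suckling stage, bile acid and ileum, tuft, adenosine, adipocyte, chloride and sodium transport and ribosomal lists. No paired analysis was possible because 1 group alone is described.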
